A study of Mus musculus with 12 samples.

Results

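Histone lysine methylation enzyme genes encode the proteins that add methyl groups to histone lysines or take them off. The group was defined by name and was chosen with earlier results of these data known. It took autosomal protein-coding genes whose symbols begin with Kmt or Kdm and a digit or with Setd and a further character. To these it added Ezh1, Ezh2, Ehmt1, Ehmt2, Nsd1, Nsd2, Nsd3, Suv39h2 and Dot1l. It held 42 of the 20665 autosomal protein-coding genes of the RefSeq annotation of GRCm38. The genes were examined in 2 chromatin immunoprecipitation libraries for which the antibody (pan-Kcr) recognises crotonylated lysine, an acylated form of lysine, irrespective of the protein that carries it. Both came from dorsal hippocampus of C57BL/6J mice, 1 from animals trained in a spatial object recognition task (learning) and 1 from animals left in the home cage (homecage). The labels of these libraries give no other allele or agent, and the number, age and pooling of the animals are not given in the sources used here. With 1 library per condition, every comparison between learning and homecage describes 2 peak lists and has no replicate check and no test.

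The autosomes held 15844 learning peaks and 329508 homecage peaks, and read depth is unknown for both lists, so the presence of a peak in 1 list alone is not a measured change in crotonylation. A peak list holds no expression values, and the tissue label could be set only against peak positions. Of 8 hippocampal and neuronal marker genes, 8 held a homecage peak and 3 a learning peak in the gene or within 1 kb. The counts were 6 and 3 of 6 autosomal glial markers, and 5 and 1 of 7 markers of other tissues. Over all autosomal protein-coding genes these shares were 85.9% and 28.5%, so the marker counts do not bear on the tissue label.

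Methylation of histone lysines has different known roles at different residues. Methylation of H3K4 marks promoters and enhancers, H3K36 and H3K79 methylation marks transcribed gene bodies, and H3K9, H3K27 and H4K20 methylation is associated with silent or compacted chromatin. Most methyltransferases carry a SET domain, DOT1L being the exception, and demethylases use either a flavin cofactor or a JmjC domain. In neurons, several of these enzymes are known to be needed for memory formation, and mutations in KMT2A, KMT2D, EHMT1, NSD1 and SETD5 cause human developmental disorders with intellectual disability.

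RefSeq promoter windows, which run from 250 bases before to 50 bases after an annotated start, were available for 31 of the 42 genes, with 42 windows in all. A learning peak overlapped 8 of these windows (19.0%), and the share over all 20085 windows of autosomal protein-coding genes was 5.52%. The 8 belonged to Kmt2a, Kmt2d, Setd1a, Setd2, Kmt5b and Kdm2b. Kmt5b and Kdm2b each had more than 1 of them. A single peak of 1092 bp reached both Kmt5b windows, 1 of them by only 13 bases, so windows are not independent. A homecage peak overlapped 12 (28.6%), against 21.0% of all windows. The 4 windows below were those with the most bases inside a learning peak at Kmt2d, Kmt5b and Setd1a and at the outermost listed start of Kdm2b, and the windows of Ezh1 and of Ehmt2 are shown as 2 without any. Sequences are on the strand of the gene, 5′ to 3′, from GRCm38.p6, and capitals mark bases inside a learning peak.
Kmt2d, chr15:98871156-98871455, minus strand: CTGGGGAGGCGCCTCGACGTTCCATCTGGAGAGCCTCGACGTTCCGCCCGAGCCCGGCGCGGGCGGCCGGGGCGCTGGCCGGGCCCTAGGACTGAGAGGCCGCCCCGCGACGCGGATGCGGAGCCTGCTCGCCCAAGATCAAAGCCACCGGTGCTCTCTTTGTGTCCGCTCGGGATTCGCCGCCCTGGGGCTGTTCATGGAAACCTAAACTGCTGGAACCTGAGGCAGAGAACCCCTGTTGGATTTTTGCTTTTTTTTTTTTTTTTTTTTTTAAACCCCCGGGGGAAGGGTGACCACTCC
Kmt5b, chr19:3767639-3767938, plus strand: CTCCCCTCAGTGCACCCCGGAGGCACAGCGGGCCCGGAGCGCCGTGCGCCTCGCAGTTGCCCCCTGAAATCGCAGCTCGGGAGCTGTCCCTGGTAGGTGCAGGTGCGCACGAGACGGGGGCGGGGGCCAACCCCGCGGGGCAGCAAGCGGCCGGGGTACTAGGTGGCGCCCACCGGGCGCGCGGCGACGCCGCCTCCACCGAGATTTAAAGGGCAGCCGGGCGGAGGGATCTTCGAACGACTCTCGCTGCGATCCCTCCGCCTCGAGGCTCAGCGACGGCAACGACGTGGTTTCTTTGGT
Setd1a, chr7:127777139-127777438, plus strand: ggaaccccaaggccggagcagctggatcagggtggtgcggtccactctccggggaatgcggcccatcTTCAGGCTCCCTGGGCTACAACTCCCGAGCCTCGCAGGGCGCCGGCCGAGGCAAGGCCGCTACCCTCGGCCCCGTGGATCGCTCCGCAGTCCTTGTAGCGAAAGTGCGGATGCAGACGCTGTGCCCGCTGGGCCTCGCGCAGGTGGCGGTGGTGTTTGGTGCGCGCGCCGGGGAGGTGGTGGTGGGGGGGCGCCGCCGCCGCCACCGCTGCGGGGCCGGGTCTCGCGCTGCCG
Kdm2b, chr5:122989050-122989349, minus strand: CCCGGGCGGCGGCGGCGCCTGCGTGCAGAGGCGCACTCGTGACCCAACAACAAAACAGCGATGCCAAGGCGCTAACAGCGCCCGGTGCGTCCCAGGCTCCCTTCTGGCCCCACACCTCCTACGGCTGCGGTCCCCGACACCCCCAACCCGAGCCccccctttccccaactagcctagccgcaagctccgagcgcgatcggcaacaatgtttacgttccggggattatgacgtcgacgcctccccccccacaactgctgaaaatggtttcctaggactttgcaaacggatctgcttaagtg
Ezh1, chr11:101226414-101226713, minus strand: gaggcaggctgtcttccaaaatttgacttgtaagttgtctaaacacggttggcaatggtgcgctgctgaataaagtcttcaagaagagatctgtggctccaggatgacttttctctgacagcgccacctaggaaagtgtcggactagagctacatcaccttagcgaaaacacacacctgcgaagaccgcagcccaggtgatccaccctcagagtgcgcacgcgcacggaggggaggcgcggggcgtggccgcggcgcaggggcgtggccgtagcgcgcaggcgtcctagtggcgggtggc
Ehmt2, chr17:34898224-34898523, plus strand: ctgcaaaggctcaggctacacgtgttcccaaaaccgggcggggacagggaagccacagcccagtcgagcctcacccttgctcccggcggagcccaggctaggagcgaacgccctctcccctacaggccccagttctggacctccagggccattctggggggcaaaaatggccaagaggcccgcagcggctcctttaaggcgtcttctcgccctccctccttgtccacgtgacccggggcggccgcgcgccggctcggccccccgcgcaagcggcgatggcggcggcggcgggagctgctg

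The learning peaks covered all 300 bases of the Kmt2d and Kmt5b windows, 233 bases at Setd1a and 154 at Kdm2b. At Kmt2a and Setd2 they reached only the last 29 bases, because these peaks lay further into the gene. The windows were rich in CpG dinucleotides. The median was 28 CpG per window over the 42 windows and 14 over all windows, and the median G+C content was 64.5% and 57.0%. The 8 windows with a learning peak held 16 to 38 CpG (median 31.5), and the 34 without held 0 to 65 (median 28), so the ranges overlapped. The GC box GGGCGG, searched on both strands like all motifs here, was present in 29 of 42 windows (69.0%; all windows 47.0%). The letters CCAAT were present in 17 windows (40.5%; all windows 38.1%). TATAAA was present in 0 of 42 (all windows 12.7%), the cAMP response element TGACGTCA in 1 (2.38%; all windows 2.3%), the ETS core CCGGAAG in 7 (16.7%; all windows 11.9%) and the NRF1 motif in 7 (16.7%; all windows 6.55%). Matches can overlap one another, as can windows of 1 gene.

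A learning peak lay in the gene or within 1 kb of its ends at 26 of the 42 genes (61.9%, exact 95% Clopper-Pearson interval 45.6 to 76.4%), and 28.5% of all autosomal protein-coding genes met this rule. Over all genes this share rose with gene length. It was met by 1780 of 11089 genes under 20 kb and 1478 of 4851 of 20 to 50 kb. The counts were 1087 of 2412 at 50 to 100 kb and 1540 of 2313 over 100 kb. The enzyme genes had 1 of 5, 9 of 16, 13 of 15 and 3 of 6 in the same order. The part of length in the count of 26 was not tested. All 42 genes had at least 1 homecage peak (85.9% of all genes). A gene end with a peak, meaning a peak that reached within 1 kb of either annotated end, was found in the learning list at 20 genes (47.6%, 32.0 to 63.6%; all genes 16.5%). The homecage list had one at 36 genes (85.7%, 71.5 to 94.6%; all genes 64.3%). All 20 genes with a learning peak at an end also had a homecage peak at an end. Over all genes, 2999 of the 3409 with a learning end peak had both (14.5% of all genes). The peaks of the 2 lists need not lie at the same place, and they overlapped at an end in 17 of the enzyme genes. No enzyme gene had the learning peak alone (all genes 1.98%). The genes without a learning end peak split into 16 with a homecage peak alone (38.1%; all genes 49.7%) and 6 with neither (14.3%; all genes 33.8%). These 6 were Suv39h2, Kdm1b, Kdm4c, Kdm4d, Kdm5a and Kdm8. Intervals take genes to be independent and include no error beyond counting.

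**Figure D1:**
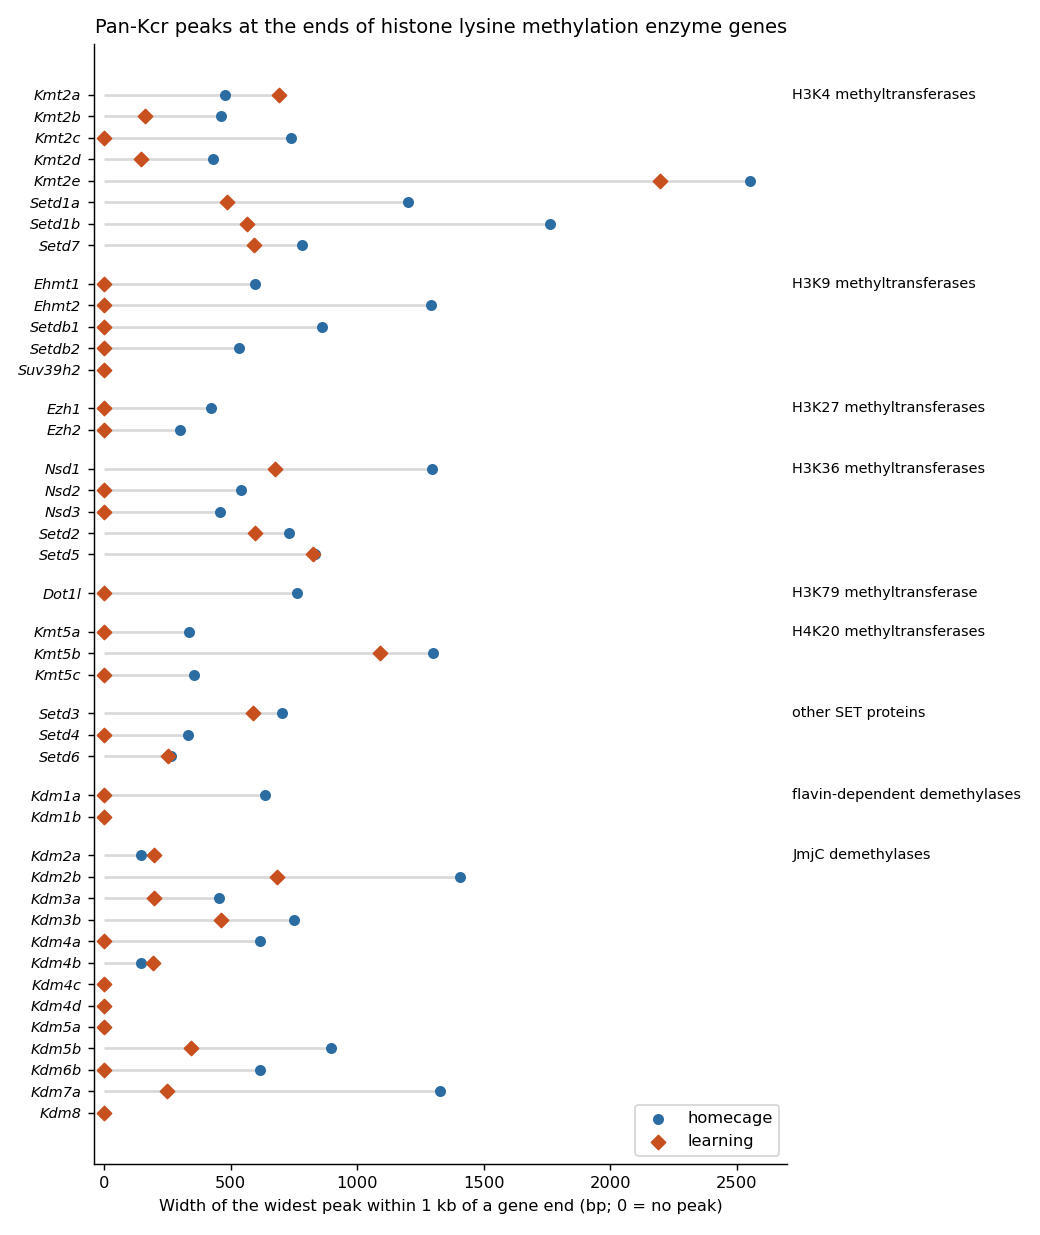
Width in bp of the widest pan-Kcr peak within 1 kb of a gene end, for each of the 42 genes in the learning list (orange diamonds) and the homecage list (blue circles), grouped by the residue or cofactor of the enzyme; 0 means no peak. Kmt2e stands furthest out in both lists (2197 and 2554 bp), and 20 of the 42 learning values and 36 of the homecage values lie above 0.

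The genes are long, with a median of 48.2 kb (5.87 to 227 kb) against 17.5 kb for all genes, and over all genes the share with a learning end peak went from 13.0% under 20 kb to 22.4% over 100 kb. Within classes of length, a learning peak at an end was present at 11 of 15 genes of 50 to 100 kb (73.3%, 44.9 to 92.2%), and 22.3% of all genes of that length had one. The counts were 6 of 16 genes of 20 to 50 kb (37.5%; all 18.9%), 2 of 6 over 100 kb (33.3%; all 22.4%) and 1 of 5 under 20 kb (20.0%; all 13.0%). The interval left out the share of all genes only in the class of 50 to 100 kb. Homecage end peaks followed with 14 of 15 (all 71.0%), 14 of 16 (all 68.2%), 5 of 6 (all 69.5%) and 3 of 5 (all 60.0%) in the same order. Peaks of at least 500 bp at an end were present at 10 genes in the learning list (23.8%, 12.1 to 39.5%; all genes 4.05%) and at 23 in the homecage list (54.8%; all genes 29.5%).

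**Figure D2:**
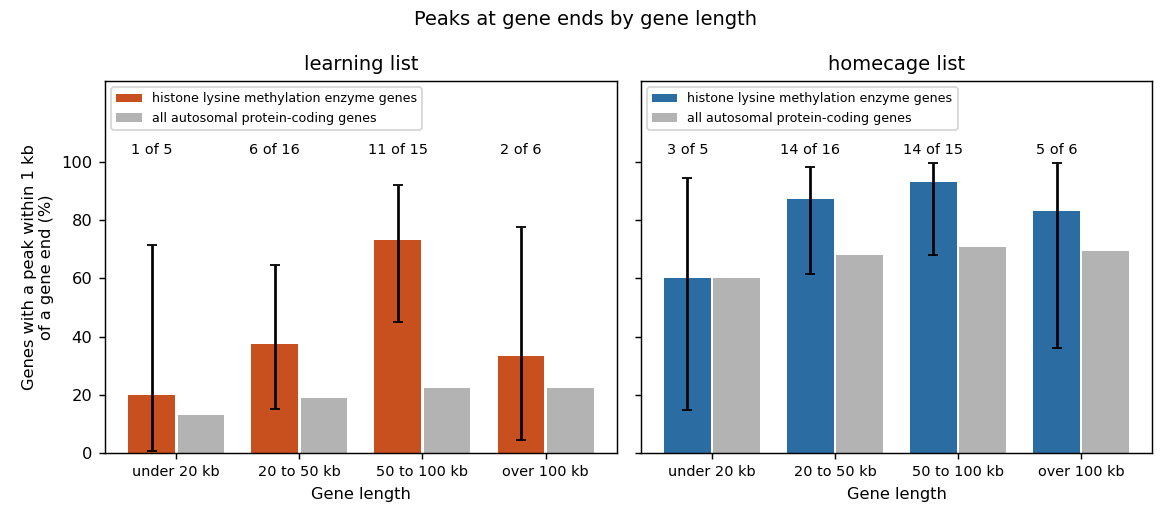
Share of genes in percent with a peak within 1 kb of a gene end, by gene length, for the 42 genes (coloured bars, exact 95% interval, counts above) and all autosomal protein-coding genes (grey). In the learning list the class of 50 to 100 kb stands highest, with 11 of 15 genes against 22.3% of all genes.

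CpG content moved with these counts. Genes with a known strand were divided by the CpG count of the window nearest their outermost start into low, middle and high classes, and a learning peak at the start was present in 3.58%, 13.7% and 27.4% of all genes in these classes. A homecage start peak was present in 34.6%, 50.9% and 66.4%. Of the 31 enzyme genes with a strand, 22 fell into the high class (21 to 65 CpG). There, 9 of 22 had a learning start peak, beside the 27.4%, and 19 of 22 a homecage start peak, beside 66.4%. In the middle class the counts were 2 and 5 of 7 genes, and in the low class 1 and 1 of 2. No limit was set on the distance between window and start. The low-class gene with both peaks was Setd5. Its only listed window, with annotated start chr6:113104935, lay away from the outermost start at chr6:113077262, where the peaks were. The CpG content of that outermost start is therefore not known here. Kmt2d was likewise classed by a window inside the gene. In the high class at 50 to 100 kb, a learning start peak was present at 4 of 6, beside 31.5% of all such genes, and a homecage start peak at 6 of 6, beside 70.5%. The share of all genes with a learning start peak was thus higher in the high class, and lower in the low and middle classes, than the 15.3% over all genes with a strand. The part of length or CpG in the count of the enzyme genes was not tested further.

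Of the 31 genes with a strand, 12 had a learning peak within 1 kb of the outermost start (38.7%, 21.8 to 57.8%; all genes with a strand 15.3%) and 1, Kmt2d, at the 3′ end (3.23%; all genes 1.95%). Homecage peaks were present at 25 starts (80.6%; all genes 51.2%) and 14 3′ ends (45.2%; all genes 31.5%). The 12 genes held 15 learning start peaks. Of these, 11 lay wholly inside the gene, 3 crossed the start and 1 lay wholly upstream, and their midpoints had a median of 453 bp into the gene (from -828 to 1130 bp, negative upstream). The position with the most peaks was 500 bp into the gene in both lists, where 9 of 31 starts (29.0%) had a learning peak and 18 (58.1%) a homecage peak, beside 5.75% and 19.7% of all starts. At the start itself the counts were 3 (9.68%; all starts 2.28%) and 5 (16.1%; all starts 11.9%). Over all genes the highest position was 300 bp into the gene, at 7.19% for learning and 22.3% for homecage peaks. At 300 bp, 7 of the 31 starts (22.6%) had a learning peak and 14 (45.2%) a homecage peak. The 500 bp position was picked as the highest of the 31 starts, and the difference in position was not tested.

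**Figure D3:**
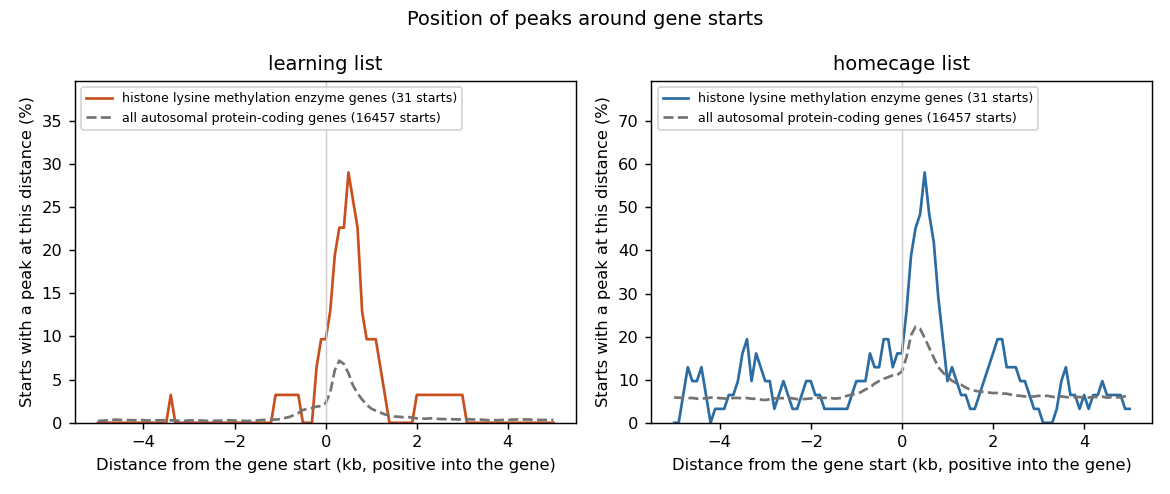
Percent of gene starts with a peak at each distance from the outermost annotated start (kb, positive into the gene) for 31 of the enzyme genes (solid) and 16457 autosomal protein-coding genes (dashed), learning list on the left and homecage list on the right with different vertical scales. Both solid lines are highest at 500 bp into the gene, at 29.0% and 58.1%.

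Of the 8 H3K4 methyltransferase genes, 7 had a learning peak at an end (all genes 16.5%) and 8 a homecage peak (all genes 64.3%). Kmt2d was counted among the 7 only through a 146 bp peak past its 3′ end, which was also within 1 kb of Prkag1. Kmt2e, whose product binds H3K4me3 and is reported to lack methyltransferase activity of its own, had a 2197 bp learning peak from 123 to 2319 bp inside its lower-coordinate end, the widest learning end peak in the list after that of 1 other gene (rank 2 of 20665 genes). The homecage peak there was 2554 bp and began 211 bp outside the gene (rank 32). Kmt2a, the founding MLL methyltransferase, had learning peaks of 692 bp inside and 604 bp upstream of its start, and the overlapping homecage peaks were narrower, at 477 and 384 bp. Its close relative Kmt2b had a 162 bp learning peak and a 342 bp homecage peak at the same place. The other pair of MLL genes, Kmt2c and Kmt2d, encodes methyltransferases that act at enhancers. Kmt2c, the longest of the genes at 227 kb, had 29 homecage peaks and no learning peak, and Kmt2d (42.4 kb) had 7 and 2. The wide Kmt2d learning peak (1081 bp, chr15:98871071-98872151) lay 1926 to 3006 bp inside the outermost start and covered the listed start printed above, with a 794 bp homecage peak over the same place. The 146 bp learning peak lay 44 bp from the nearest homecage peak.

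Setd1a and Setd1b, the catalytic subunits of the SET1 complexes, had learning peaks of 486 and 566 bp across the gene end. Homecage peaks of 1202 and 1762 bp overlapped them, and the Setd1b peaks were also within 1 kb of Rhof. Setd7, a monomethyltransferase with many non-histone substrates, had a 594 bp learning peak, 228 to 821 bp into the gene, that overlapped a 782 bp homecage peak.

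The 5 H3K9 methyltransferase genes and 2 H3K27 methyltransferase genes had no learning peak at an end, beside 16.5% of all genes, and a count of 0 among so few genes is near the background. Ehmt1 and Ehmt2 encode the partners of the G9a-GLP complex, which dimethylates H3K9. Ehmt1 (129 kb) had 18 homecage peaks and 1 learning peak of 285 bp, which lay 8104 bp into the gene and 4297 bp from the nearest homecage peak. Ehmt2 (15.6 kb) had 4 homecage peaks, among them 1293 bp at the start (chr17:34898670-34899962) and 1000 bp further in, and the nearest learning peak to the start peak was 67448 bp away. Homecage peaks covered 16.0% of Ehmt2 and its flanks, and 5.43% at the median of the 42 genes. Setdb1 and Setdb2, which encode enzymes that trimethylate H3K9, had homecage start peaks of 862 and 532 bp and no learning peak. The Setdb2 peaks also fall in the overlapping readthrough gene Gm45935 and cannot be assigned to either gene. Suv39h2, a heterochromatin H3K9 methyltransferase, had 2 homecage peaks, both away from its ends. Both also lay in or within 1 kb of Dclre1c and cannot be assigned to either gene.

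Ezh1 and Ezh2 encode the alternative catalytic subunits of Polycomb repressive complex 2. Ezh2 had the lowest homecage cover of the 42 genes (2.42% of gene and flanks, 6 peaks of at most 377 bp) and Ezh1 the third lowest (2.90%, 3 peaks). The homecage start peaks were 152 bp at Ezh1 and 301 bp at Ezh2. Ezh2 had 1 learning peak, 475 bp at 26384 to 26858 bp into the gene (chr6:47568412-47568886), 2894 bp from the nearest homecage peak, and Ezh1 had none.

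Among the 5 H3K36 methyltransferase genes, Setd2, Setd5 and Nsd1 had a learning peak at an end (all genes 16.5%). All 5 had a homecage peak at an end (all genes 64.3%). Setd5, whose substrate is debated, had an 826 bp learning peak and an 834 bp homecage peak that shared nearly their whole extent, from 217 bp upstream to 608 bp inside in the learning list. Setd2, whose product trimethylates H3K36, had 595 and 731 bp peaks at its start. Nsd1, a dimethyltransferase, had learning peaks of 675 and 146 bp, both over a homecage peak of 1297 bp. Its paralogues Nsd2 and Nsd3 had 9 and 18 homecage peaks and no learning peak. Dot1l, the H3K79 methyltransferase, also had no learning peak, but 9 homecage peaks that covered 15.1% of the gene and its flanks and included 761 bp at the start and 1044 bp in the middle of the gene.

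Of the 3 H4K20 methyltransferase genes, 1 had a learning peak at an end (all genes 16.5%) and 3 a homecage peak (all genes 64.3%). Kmt5b, which makes di- and trimethylated H4K20, had a learning peak of 1092 bp (chr19:3767458-3768549) and a homecage peak of 1299 bp (chr19:3767188-3768486) at its start, and ranked 63 of all genes by learning end peak width and 658 by homecage end peak width. Kmt5a, the monomethyltransferase, had the highest homecage cover of the 42 genes at 18.4%. Its widest homecage peak (1784 bp, chr5:124445061-124446844) covered 2 listed internal starts and no learning peak overlapped it. Its 475 bp learning peak lay 15761 bp into the gene, 3 bp from a 285 bp homecage peak. Kmt5c had 2 homecage peaks and no learning peak.

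**Figure D4:**
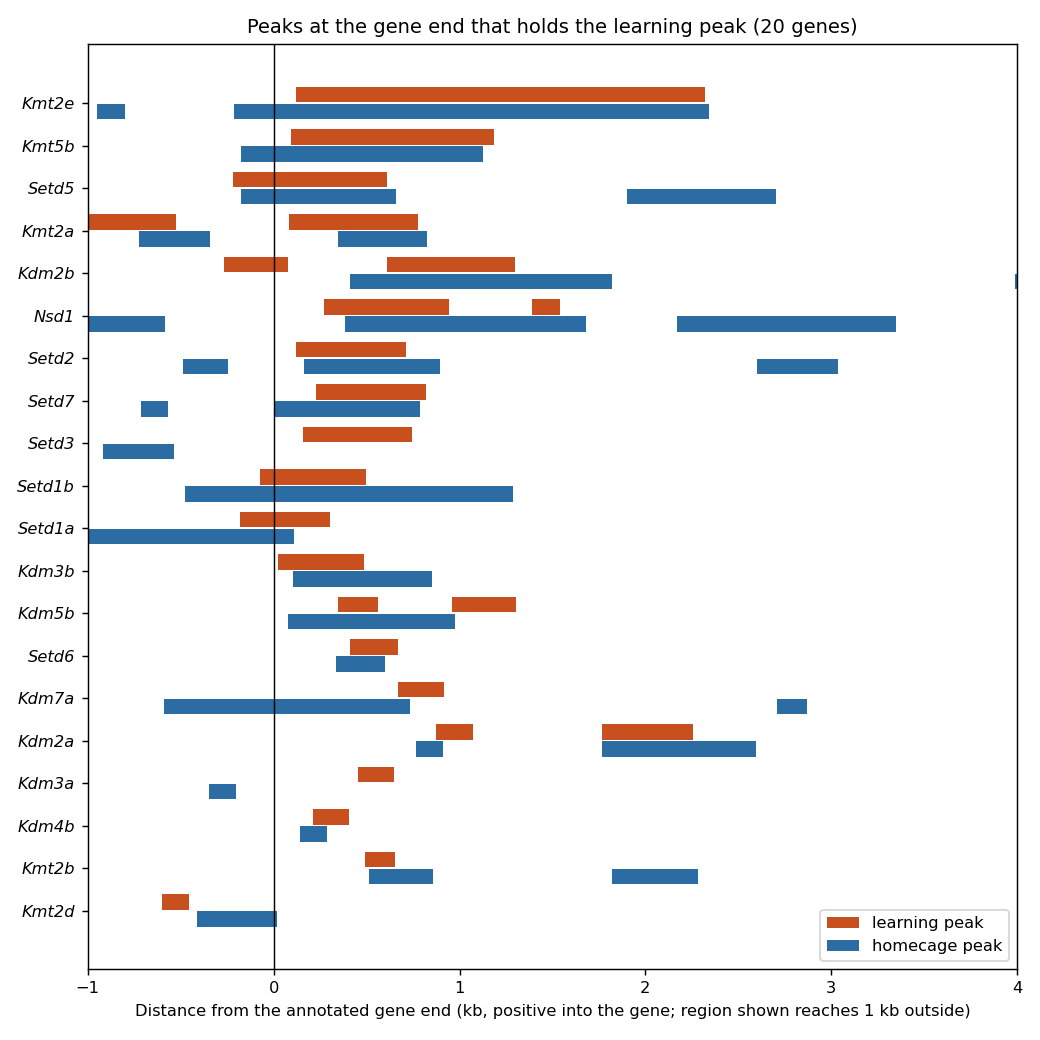
Learning peaks (orange) and homecage peaks (blue), to scale, at the gene end that holds the widest learning end peak of each of 20 genes, in kb from the annotated end and positive into the gene, ordered by the width of that learning peak. Most pairs overlap within 1 kb inside the gene; those shown without overlap at the end are Setd3, Kdm3a and Kmt2d.

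Demethylase genes of the JmjC class, which oxidise the methyl group, had a learning peak at an end in 7 of 13 (all genes 16.5%). A learning peak lay in the gene or within 1 kb at 10 of 13 (all genes 28.5%). These genes are long, with a median of 70.2 kb, and 1087 of all 2412 genes of 50 to 100 kb met this rule. The homecage list had an end peak at 9 of 13, near the 64.3% of all genes. Kdm2b, an H3K36 demethylase that brings variant Polycomb complex 1 to CpG islands, had learning peaks of 685 and 342 bp at its start. A homecage peak of 1408 bp overlapped the wider of these, and the narrower lay 339 bp from it. The related Kdm2a had learning peaks of 494 and 196 bp near its higher-coordinate end over homecage peaks of 831 and 147 bp, all of them also in or within 1 kb of 9430078G10Rik. Of the H3K4 demethylases, Kdm5b had 2 learning peaks (214 and 345 bp) on a single homecage peak of 895 bp, also within 1 kb of Mgat4e, and Kdm5a had 1 of 455 bp deep in the gene, 17362 bp from the nearest homecage peak. Among the H3K9 demethylases of the Kdm3 pair, Kdm3b had a 464 bp learning peak over a 749 bp homecage peak, and Kdm3a had 196 bp with no homecage peak over it. Kdm7a, which acts on H3K9 and H3K27, had 248 bp at the margin of a 1326 bp homecage peak. Kdm6b, the H3K27 demethylase, had 2 learning peaks of 186 and 255 bp inside the gene, 1828 and 381 bp from homecage peaks, and 6 homecage peaks.

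The 4 Kdm4 genes, which encode demethylases of H3K9 and, for most of them, H3K36, are given by number and width of peaks. Kdm4b had 25 homecage peaks in 77.8 kb, or 3.13 per 10 kb of gene and flanks, rank 25 of the 2412 genes of 50 to 100 kb. Its 3 learning peaks (195, 309 and 505 bp) each overlapped a narrower homecage peak (147, 147 and 182 bp), while its widest homecage peak, 1684 bp, had no learning peak over it. Kdm4a had 3 learning peaks of 146, 146 and 282 bp in its 3′ part, 173 to 3179 bp from homecage peaks, and none at an end. Kdm4c, the second longest of the genes at 163 kb, had 14 homecage peaks, none at an end, and no learning peak. Kdm4d had 3 homecage peaks and no learning peak. Kdm8 had a single homecage peak, of 1337 bp, 6218 bp into the gene (chr7:125450838-125452174).

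The flavin-dependent demethylases Kdm1a and Kdm1b, which act on H3K4, had 8 and 6 homecage peaks and no learning peak. Of the SET proteins with other substrates, Setd3, the actin histidine methyltransferase, had a 587 bp learning peak at its start that no homecage peak overlapped, at a distance of 698 bp and also within 1 kb of Ccnk. Setd6 had peaks of 254 and 264 bp that overlapped, and Setd4 had 4 homecage peaks alone. Genes grouped above as methyltransferases of a named histone residue, Kmt2e and Setd5 included, and demethylase genes were also each taken as a whole. Learning end peaks were present at 11 of 24 and 7 of 15 genes (all genes 16.5%). Homecage end peaks were present at 23 of 24 and 10 of 15 (all genes 64.3%), so the demethylase count was near that share. The difference between these groups was not tested.

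**Figure D5:**
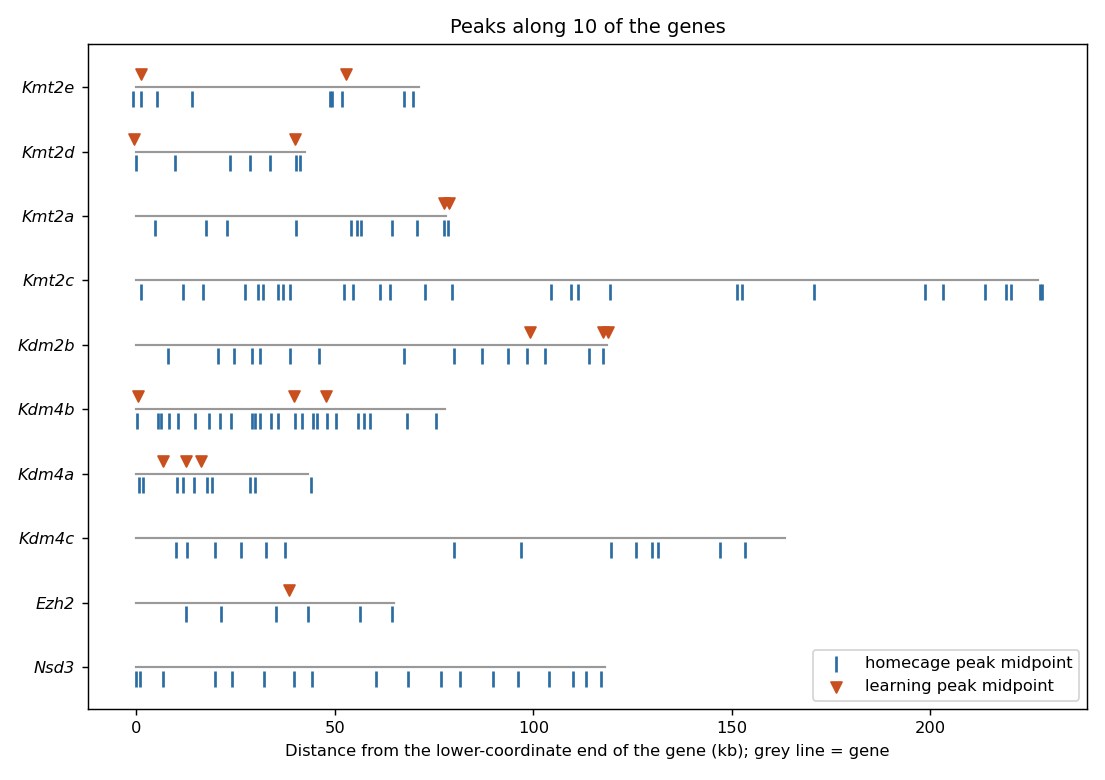
Midpoints of learning peaks (orange triangles) and homecage peaks (blue ticks) along 10 of the genes (grey lines), in kb from the end with the lower coordinate; the 10 were picked after their values were seen. Kdm4b holds 25 homecage peaks in 77.8 kb, and Kmt2c, Kdm4c and Nsd3 hold none of the learning list.

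Overlap of the 2 lists was counted over all peaks of the genes, at their ends and elsewhere. The genes held 41 learning peaks, 24 of which overlapped a homecage peak (58.5%, 42.1 to 73.7%), and over all genes the share was 48.6%. At gene ends 19 of 23 overlapped (82.6%, 61.2 to 95.0%; all genes 68.9%), and elsewhere 5 of 18 (27.8%, 9.69 to 53.5%; all genes 36.9%). The 4 end peaks without a partner lay 44 to 698 bp from the nearest homecage peak. The median width of these learning peaks was 486 bp at ends and 284 bp elsewhere (all genes 329 and 304 bp), and a wider peak has more chance to meet another. The difference between ends and the rest of the gene was not tested. In the 24 overlapping pairs the homecage peak was wider in 17 and the learning peak in 7, and over all genes the homecage peak was wider in 73.6% of pairs. Peaks of 1 gene share their library and are not independent.

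Conversely, 22 of the 360 homecage peaks overlapped a learning peak (6.11%, 3.87 to 9.11%), and over all genes 2.86% did. At ends the count was 18 of 61 (29.5%; all genes 13.3%) and elsewhere 4 of 299 (1.34%; all genes 1.48%). Homecage cover was near that of other genes. The median was 5.43% of gene and flanks (2.42 to 18.4%) and that of all genes 5.39%, and the density was 1.37 peaks per 10 kb against 1.44. Learning peaks were present at 0.156 per 10 kb against 0.0893 over all genes. By length, these learning densities were 0.13 and 0.187 in genes under 20 kb, the other way round, 0.245 and 0.122 at 20 to 50 kb, 0.181 and 0.0967 at 50 to 100 kb, and 0.0685 and 0.0606 over 100 kb.

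Genes for partners of these enzymes and for further SET proteins were counted by the same rules. Of 11 COMPASS partners, which assemble with the H3K4 methyltransferases, 2 had a learning peak at an end, Psip1 (564 bp) and Cxxc1 (539 bp), and 9 a homecage peak. Of 9 partners of Polycomb repressive complex 2, 4 had a learning peak at an end (146 bp at Jarid2 to 361 bp at Rbbp4) and 6 a homecage peak. Of 13 H3K9 and demethylase partners, 6 had a learning peak (146 bp at Trim28 to 412 bp at Rcor3) and 11 a homecage peak. Of 10 further SET and PR-domain genes, 3 had a learning peak at an end and 8 a homecage peak, and Prdm2, an H3K9 methyltransferase, had the widest of each in that list, 1153 and 1419 bp. All 43 of these symbols were autosomal. The share of all genes with a learning end peak, 16.5%, applies to these counts too, as does 64.3% in the homecage list, and median gene lengths of the 4 lists ran from 24.5 to 52.8 kb.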

How the data were processed

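Pan-Kcr ChIP-seq peak lists of 1 learning and 1 homecage library were analysed; the other 10 of the 12 libraries were not analysed here. The deposited files give only chromosome, start, end and name of each peak, in base pairs. Broad peaks were called at a p threshold of 0.01, per the peak names in the files, and Trimmomatic, BWA, MACS2 and mm10 are named in the submitters' processing notes without roles or versions. Use of an input control, read depth and peak strength are not given in the sources used here. Peaks were set against RefSeq genes of GRCm38.p6, a peak counting if it overlapped the gene with 1 kb of flank, or came within 1 kb of an end, by at least 1 bp. Cover counts bases of peaks within that window. Strand came from the RefSeq promoter table (31 of the 42 genes); elsewhere ends are named by coordinate. CpG classes and start profiles were chosen after the data were seen. Members and lists were chosen with earlier results of these data known. Named genes were to be the 6 with the widest and the 4 with the most peaks per list, those with a learning end peak without a homecage partner, and 6 paralogue pairs with Kdm6b; all 42 are accounted for. Calls were checked on planted peaks. Calculations used Python 3.11.15 with pandas 2.3.3 and numpy 2.4.6, intervals used scipy 1.17.1, and plots used matplotlib 3.10.9.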

Additional observations from a re-analysis of the deposited data

How the results depend on the processing

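No paired analysis was possible because learning and homecage had 1 antibody library each, and no replicate could be left out. Of 43 recomputed values, 30 stayed within 1.5 times (counts) or within the counting interval (shares and densities), and 13 moved. With peaks of at least 500 bp, genes with a learning peak fell from 26 to 12. Those with one at an end fell from 20 to 10 (all genes 4.05%) and homecage end peaks from 36 to 23 (all genes 29.5%). Densities fell to 0.0494 learning and 0.399 homecage peaks per 10 kb. With the homecage list reduced to its widest peaks, as many as in the learning list, 18 genes had a homecage peak. The share of all genes was not computed for these counts of 12 and 18, so they cannot be set against a background. In the reduced list 9 genes had a homecage peak at an end (all genes 10.0%), and the density was 0.103 per 10 kb. There, 24.4% of learning peaks overlapped a homecage peak, and 29.6% of homecage peaks overlapped a learning peak. An overlap of 50% of both peaks gave 24.4% and 2.78%, and merging peaks closer than 1 kb gave 1.23 homecage peaks per 10 kb. Values over all genes were not computed for the densities and overlap shares under these settings, so these too lack a background. Windows of 500 bp or 3 kb around ends left 18 and 22 genes with a learning end peak, against 13.6% and 21.3% of all genes. Unknown depth limits every statement that a peak is missing from a list.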

Other observations

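Relatives of these genes on the sex chromosomes fell outside the definition. In the gene or within 1 kb, 12.4% of the 966 protein-coding genes of chromosome X held a homecage peak and 0.414% a learning peak, and the shares of the 256 genes of chromosome Y were 8.59% and 1.95%. On chromosome X, the H3K27 demethylase gene Kdm6a (119 kb) had 1 homecage and 0 learning peaks, the H3K4 demethylase gene Kdm5c (45.9 kb) 0 and 0, the demethylase gene Phf8 (113 kb) 0 and 1, and Suv39h1 (13.6 kb), the paralogue of Suv39h2, 1 and 0. On chromosome Y, Kdm5d and Uty had 0 in both lists. The autosomal paralogues had more homecage peaks, with 8 at Kdm5b, 7 at Kdm5a, 6 at Kdm6b and 2 at Suv39h2. Shares on X and Y were low over all genes too, and with so few relatives the counts are not a result about these genes.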
